A study of Mus musculus with 16 samples.

Results

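The protocadherin genes were followed in P19 cells, a mouse embryonal carcinoma line, under a let-7a mimic, a knockdown of Sfpq, and both together. The members were selected by name, as every non-control probe whose gene name in the scanner files starts with Pcdh. The name rule found 64 probes on 73 spots, of 55681 probes on 59305 spots in all. These probes stood for 47 genes, with 7 in the alpha cluster, 22 in the beta cluster, 6 in the gamma cluster and 12 single genes outside the clusters. A probe was kept where it was well above background, as the scanner software calls it, on all 4 arrays of at least 1 condition. Of the 47 genes, 35 passed (6 alpha, 15 beta, 5 gamma and 9 non-clustered), among 18323 genes tested in all. The family was taken up because earlier results of these data had drawn attention to it, so counts over its members describe these arrays and are no independent evidence of a direction.

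The 4 conditions were P19 cells labelled control, let-7a, siSfpq (small interfering RNA against Sfpq) and let-7a + siSfpq. Cells received 24 nM of mimic or siRNA, and RNA was isolated 48 h later. The array methods name the control only as control, so which control oligonucleotides those cells received is not given in the sources used here. Each condition has 4 one-colour arrays, numbered 1 to 4, of which arrays 1 and 2 of a condition differed from each other about as little as repeated spots of 1 probe on 1 array. An SD per array, estimated from the median absolute log2 difference, was 0.061 to 0.076 for arrays 1 and 2. It was 0.12 to 0.39 for other arrays of a condition. Between spots of 1 probe the square root of the median variance was 0.061 to 0.071. The mean of arrays 1 and 2 was therefore taken as a single sample, giving 3 samples for each condition and 12 in all. The methods speak of replicates of transfected cells, but neither they nor the labels tie an array number to a culture of its own, so p-values measure only the spread between these samples, which may be technical.

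Protocadherins form the largest subfamily of the cadherins, the calcium-dependent adhesion proteins, and are known above all from the nervous system. The clustered genes lie in 3 neighbouring arrays. In the alpha and gamma arrays, each variable first exon with its own promoter is spliced to constant exons that the whole array shares, whereas each beta gene is a single exon. In neurons, promoters are chosen largely at random in each cell, with the insulator protein Ctcf and cohesin bound at them, and the resulting mixture of proteins serves as an adhesive identity by which neurites recognise their own cell. The non-clustered genes sit elsewhere in the genome and act in axon guidance, cell sorting and synapse formation. let-7a is a microRNA that accumulates as embryonic cells differentiate, and Sfpq is an abundant nuclear RNA-binding protein of the paraspeckle.

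The microRNA that was added is shown here because it is the one designed agent of known sequence in the experiment. RefSeq gives the same mature sequence under Mirlet7a-1, at chr13:48538239-48538260 on the minus strand of GRCm38.p6, and capitals mark the seed, bases 2 to 8.
mmu-let-7a-5p: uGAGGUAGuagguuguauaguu

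Between 33733 and 38464 spots per array were well above background. The control cells had a log2 level of 12.01 ± 0.05 (SD, n = 3) for Sfpq itself. It was 11.98 ± 0.07 in let-7a and, among the knockdown cells, 10.88 ± 0.51 with siSfpq alone and 11.40 ± 0.09 with both agents. The 3 siSfpq samples read 10.55 (arrays 1 and 2), 11.46 (replicate 3) and 10.62 (replicate 4), so replicate 3 kept more Sfpq RNA than the other two. In the limma fit, Sfpq fell in siSfpq by 1.13 on the log2 scale (SE 0.19, adjusted p = 0.00728). In let-7a + siSfpq the difference was -0.61 against control (adjusted p = 0.182) and -0.58 against let-7a (adjusted p = 0.142), and these were -0.67 (adjusted p = 0.00112) and -0.61 (adjusted p = 0.000944) without replicate 3. With both agents Sfpq was 0.52 higher than with siSfpq alone (adjusted p = 0.0995), or 0.77 higher without replicate 3 (adjusted p = 0.000141). Of 8 markers of pluripotent or embryonal carcinoma cells 7 passed the filter, and Zfp42 did not. Arrays 1 and 2 shared a slide and arrays 3 and 4 another, each slide held all conditions, and the place of an array on its slide went with its condition, so place and condition cannot be told apart.

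The probes of the beta genes that passed lie on chromosome 18 between 37456962 and 37680728 (mm9, 1-based), those of the alpha genes between 37114742 and 37347294, and those of the gamma genes between 37823813 and 38001437. The non-clustered genes that passed lie on chromosomes 3, 5, 10, 14, 18 and X. Most alpha probes and every beta probe name 1 gene, but some probes measure shared sequence. The kept probe of Pcdhac2, at 37347235, is also listed for Pcdha4, Pcdha9 and Pcdhac1, while the probe listed for Pcdhac2 alone was above background on 3 of 16 arrays. Of the 2 Pcdha8 probes, that at 37154205 is also listed for Pcdha4 and Pcdha7, and both it and the Pcdha4 probe are listed for Gm37013. Both probes of Pcdhga9, at 37999725 and 38001378, are also listed for other gamma genes. Their values are read below as levels of alpha or gamma transcripts that hold those exons. The beta genes are close paralogues, and whether their probes also bound each other's transcripts was not tested.

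In the beta cluster 6 of the 15 genes that passed the filter rose with let-7a and 11 fell with siSfpq. Of all genes 4.88% were called higher with let-7a and 7.33% lower with siSfpq. Pcdhb2, Pcdhb10 and Pcdhb15 passed through the let-7a arrays alone, so the let-7a counts are no support for a rise. In let-7a against control, the 15 beta genes that passed were all above 0, with a median log2 difference of 1.25, a 2.39-fold rise of the median. In siSfpq against control all 15 were below 0, with a median of -1.45, 2.74-fold lower. Over the 8 beta genes that were well above background on all 16 arrays the medians were 0.82 and -1.44. With normexp, another background correction that draws dim probes together, the medians of the 15 were 0.65 and -0.64, so the sizes depend on the processing. With both agents the median was -0.29 against control, with 3 genes above 0 and 12 below. The median over all 18323 genes was -0.04, 0.01 and -0.01 in these comparisons. Of all genes 8083 were above 0 with let-7a and 9012 below 0 with siSfpq. RNA of a bulk culture was measured, so fewer cells expressing a gene and less RNA per cell cannot be told apart.

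Pcdhb21, the beta gene with the highest mean level, showed this order in each sample. Its log2 levels, in the order arrays 1 and 2, replicate 3 and replicate 4, were 9.63, 8.85 and 9.52 in control and 10.95, 9.97 and 10.85 in let-7a. They were 7.51, 7.91 and 7.14 in siSfpq and 9.05, 8.73 and 8.76 in let-7a + siSfpq. All let-7a samples lay above all control samples and all siSfpq samples below them, while the samples with both agents overlapped the control range. The rise with let-7a was 2.39-fold (log2 1.25, SE 0.29, adjusted p = 0.0237) and the fall with siSfpq 3.52-fold (log2 -1.82, SE 0.29, adjusted p = 0.00643).

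Pcdhb3 is read on a single probe that is printed on 10 spots of each array. In control its samples read 5.73, 5.38 and 5.88, and in let-7a 7.24, 6.97 and 7.42. In siSfpq they read 2.61, 4.25 and 2.63, and in let-7a + siSfpq 5.32, 5.51 and 5.28. Replicate 3 of siSfpq, the sample with the most Sfpq RNA left of its group, was also the highest siSfpq sample for Pcdhb3, and 1 of the 4 siSfpq arrays was well above background. Pcdhb3 rose 2.92-fold with let-7a (log2 1.55, SE 0.38, adjusted p = 0.0311) and fell with siSfpq (adjusted p = 0.0057). The size of that fall rests on signal not well above background on the other 3 siSfpq arrays, so no fold is given for it.

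**Figure D1:**
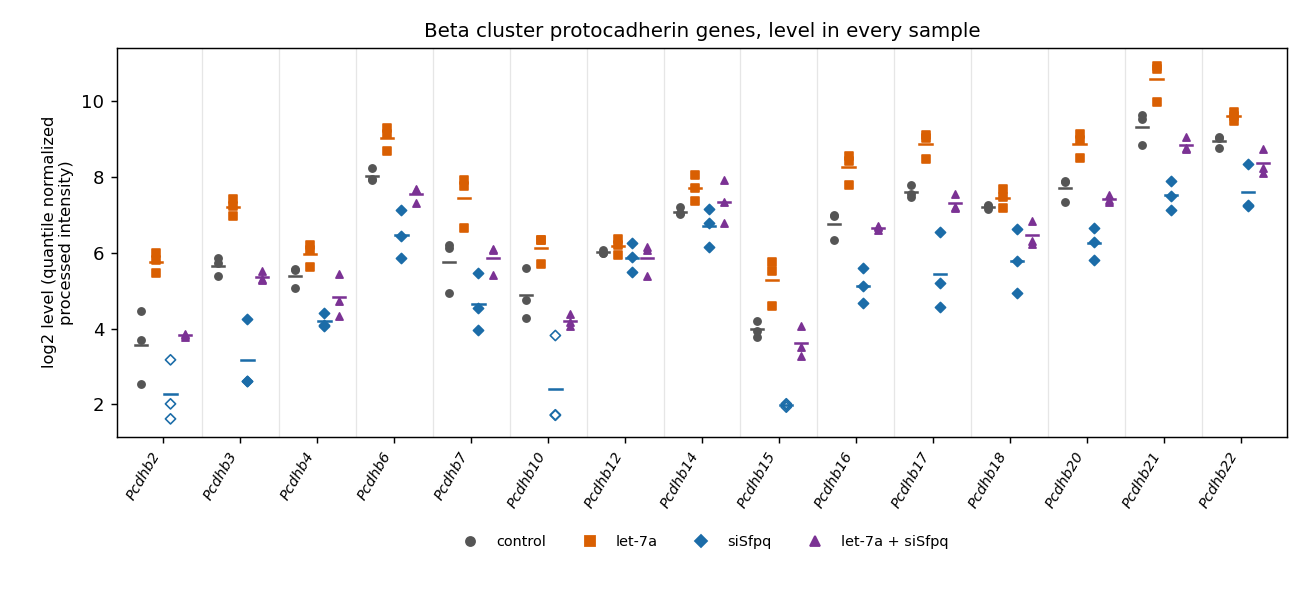
Log2 level (quantile-normalized processed intensity) of the 15 beta cluster genes that passed the filter, with a point for each of the 3 samples of a condition and a bar at their mean. Open symbols mark a condition in which no array was well above background (Pcdhb2, Pcdhb10 and Pcdhb15 in siSfpq). Levels are not compared between genes, whose probes differ. For most genes the let-7a points are uppermost and the siSfpq points lowest, as for Pcdhb21 (9.97 to 10.95 against 7.14 to 7.91).

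The next genes by level had the same order. Pcdhb22 read 9.07, 8.78 and 9.04 in control, 9.71, 9.47 and 9.63 in let-7a, 7.23, 8.34 and 7.27 in siSfpq, and 8.11, 8.73 and 8.25 with both. Pcdhb6 read 8.24, 7.91 and 7.95 in control, 9.29, 8.68 and 9.14 in let-7a, 6.44, 7.13 and 5.86 in siSfpq, and 7.70, 7.65 and 7.33 with both. Pcdhb20 read 7.90, 7.34 and 7.88 in control, 9.14, 8.51 and 8.97 in let-7a, 6.28, 6.67 and 5.82 in siSfpq, and 7.35, 7.53 and 7.39 with both. In each of these 3 genes let-7a lay wholly above control and siSfpq wholly below it. Their mean levels with both agents lay between those of siSfpq and let-7a, and for Pcdhb20 all samples with both agents were within the control range.

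Of the 15 beta genes that passed, 6 rose with let-7a in limma's moderated test at an adjusted p under 0.05. These were Pcdhb2, Pcdhb3, Pcdhb16, Pcdhb15, Pcdhb21 and Pcdhb20, with log2 changes from 1.17 to 1.49 in Pcdhb16, Pcdhb21 and Pcdhb20, which were well above background on all 16 arrays. Pcdhb2 had 4.46, 2.54 and 3.71 in control and 5.99, 5.47 and 5.82 in let-7a, with 2 of 4 control arrays well above background. Its fitted change was 2.19 (SE 0.48, adjusted p = 0.0195) but 0.65 with normexp, so its size is set by the processing. The same holds for Pcdhb15, also above background on 2 of 4 control arrays, at 1.31 (adjusted p = 0.0376) against 0.39 with normexp, and not called with 75th percentile scaling (adjusted p = 0.0856). For Pcdhb3 the value of 1.55 became 0.89 with normexp. Over the whole family, 8 of the 35 genes tested rose and none fell, beside 4.88% of all genes called higher in this comparison. Pcdha11, Pcdhb2, Pcdhb10 and Pcdhb15 passed the filter through the let-7a arrays alone, so they were kept because they were bright there, and no count over the genes that passed is support for a rise.

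With siSfpq 11 of the 15 beta genes fell, which with 3 alpha genes made 14 of the 35 and none higher, beside 7.33% of all genes called lower. With only control and siSfpq samples in the fit no member and no gene was called, although 18 members and 4722 of all genes had an unadjusted p under 0.05. The fitted values of Pcdhb3, Pcdhb10 and Pcdhb17 were the farthest below 0, but the first of these rests on 1 siSfpq array above background and the second on none. Pcdhb17 went from 7.78, 7.47 and 7.56 in control to 5.19, 6.55 and 4.56 in siSfpq, 4.50-fold lower (log2 -2.17, SE 0.39, adjusted p = 0.00922), with 3 of 4 siSfpq arrays well above background and a log2 change of -1.17 with normexp. Pcdhb10 was not well above background on any siSfpq array. In this processing its control mean of 4.88 was at least 1.80-fold (log2 0.85) above the level at which it could have been called there (adjusted p = 0.0152). Its log2 change was -0.45 with normexp and -0.75 in the authors' values, so the bound holds for this processing only. This bound set the control mean against the siSfpq mean of, on each array, the higher of the probe's own signal and the lowest signal among probes well above background. Pcdhb15 was also below background on all siSfpq arrays, with means of 3.99 in control and 1.97 in siSfpq (adjusted p = 0.00675), and no fold is given because the control mean lay under that bound. Its call was lost with normexp (adjusted p = 0.095) and in the authors' values (adjusted p = 0.0739). Pcdhb2 was not called (3.57 against 2.27, adjusted p = 0.0924). It too was below background on all siSfpq arrays, with a control mean under its bound. With these 3 genes at their bound, the beta median in siSfpq was -1.35.

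The other beta genes called lower with siSfpq were Pcdhb4, Pcdhb6, Pcdhb16, Pcdhb18, Pcdhb20, Pcdhb21 and Pcdhb22, with log2 changes from -1.82 to -1.35 apart from Pcdhb4. Those of Pcdhb16 (-1.65), Pcdhb18 (-1.43) and Pcdhb20 (-1.45) were -0.84, -0.83 and -0.92 with normexp. The size of the Pcdhb4 fall (adjusted p = 0.0236) is not read, since 1 of 4 siSfpq arrays was well above background. Pcdhb7, Pcdhb12 and Pcdhb14 were not called in any of the 6 comparisons of this fit, although Pcdhb7 rose with let-7a (adjusted p = 0.000756) and fell with siSfpq (adjusted p = 0.00568) with the replicate number as a block. Pcdhb12 had the smallest differences of the cluster, 0.15 with let-7a (SE 0.25) and -0.15 with siSfpq (SE 0.25), although it lies between Pcdhb10 and Pcdhb14 and its probe was well above background on all 16 arrays. Pcdhb14 read 0.62 with let-7a (SE 0.31, adjusted p = 0.285) and -0.39 with siSfpq (SE 0.31, adjusted p = 0.438). Members of the cluster thus ranged from no detectable difference to several-fold, in a span where all 15 were on the same side of 0.

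The cluster was also compared within each agent. Adding siSfpq to let-7a cells lowered Pcdhb3, Pcdhb21, Pcdhb16, Pcdhb6, Pcdhb20 and Pcdhb22, with log2 changes from -1.84 to -1.24, and all 15 beta genes were below 0 with a median of -1.56, or -0.95 with normexp. Pcdhb3 had -1.84 (SE 0.38, adjusted p = 0.0253), which was -1.02 with normexp, and Pcdhb21 -1.74 (SE 0.29, adjusted p = 0.013). Pcdhb15 was also called lower (adjusted p = 0.0234), but it had passed the filter through the let-7a arrays alone, 1 of 4 arrays with both agents was well above background, and the call was lost with 75th percentile scaling (adjusted p = 0.053), so nothing is read from it. With it and 2 alpha genes this made 9 of the 35 lower and none higher, beside 2.16% of all genes called lower. Adding let-7a to siSfpq cells raised Pcdhb3, Pcdhb17, Pcdhb16, Pcdhb21, Pcdhb20 and Pcdhb6. Leaving out Pcdhb3, which was above background on 1 of the 4 siSfpq arrays, the log2 changes ran from 1.08 to 1.88, the last being that of Pcdhb17 (SE 0.39, adjusted p = 0.0172), which was 0.97 with normexp. Those of Pcdhb16 (1.54) and Pcdhb20 (1.17) were 0.76 and 0.71 with normexp. Pcdhb3 was called with an adjusted p of 0.00785. Pcdhb15 was called too, but was above background on 0 of 4 siSfpq arrays and 1 of 4 with both agents, and the call was lost with normexp (adjusted p = 0.147) and in the authors' values (adjusted p = 0.142). With it, Pcdhac2 and Pcdh17 this made 9 of the 35 higher and none lower, beside 6.18% of all genes called higher. With only those 2 conditions in the fit 2 members were called, beside 1.2% of all genes. The beta median was 1.21 in this comparison, 0.43 with normexp, or 0.75 with Pcdhb2, Pcdhb10 and Pcdhb15 at their bound. Sfpq RNA itself was 0.52 higher in this comparison (adjusted p = 0.0995), so added let-7a and a weaker knockdown cannot be told apart. These comparisons share samples with each other and with those against control, so their values stand side by side and are no repeats of one another.

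With both agents together against control, none of the 35 members passed limma's test, beside 1.54% of all genes called in either direction, and 4 members had an unadjusted p under 0.05, as did 2160 of all 18323 genes. Pcdhb22 had a log2 difference of -0.60 (SE 0.27, adjusted p = 0.415) and Pcdhb21 of -0.49 (SE 0.29, adjusted p = 0.606). A p above the threshold does not show that the cells with both agents had returned to the control level.

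**Figure D2:**
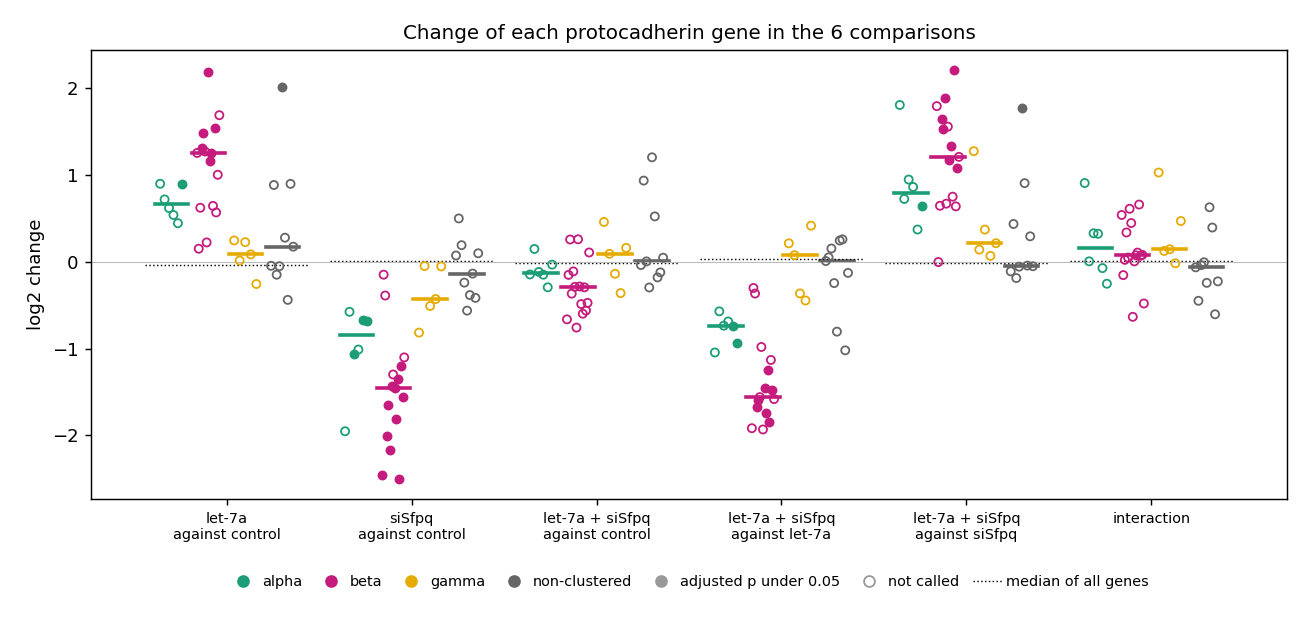
Log2 change of each of the 35 protocadherin genes that passed the filter in the 6 comparisons, coloured by cluster, with filled points for an adjusted p under 0.05, a bar at the group's median and a dotted line at the median of all genes. Fitted values are drawn also where siSfpq gave only a bound. The beta genes lie above 0 in let-7a against control (median 1.25) and below 0 in siSfpq against control (median -1.45), while the non-clustered genes lie on both sides of 0 (medians 0.17 and -0.14).

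In the alpha cluster 1 of the 6 genes that passed rose with let-7a and 3 fell with siSfpq, beside 4.88% of all genes called higher and 7.33% called lower. All 6 were above 0 with let-7a (median 0.67) and below 0 with siSfpq (median -0.84), no test compared these medians with those of the beta genes, and the median with both agents was -0.13 against control. Pcdhac2, read on the probe near the shared 3′ end of the cluster, had 9.69, 9.31 and 9.75 in control, 10.67, 10.21 and 10.56 in let-7a, 8.85, 8.93 and 8.93 in siSfpq, and 9.52, 9.55 and 9.58 with both. No let-7a or siSfpq sample overlapped the control samples, and those with both agents lay inside the control range. It rose 1.87-fold with let-7a (log2 0.90, SE 0.14, adjusted p = 0.00405) and fell 1.60-fold with siSfpq (log2 -0.68, SE 0.14, adjusted p = 0.0155). With both agents it was 0.93 lower than with let-7a (log2 -0.93, SE 0.14, adjusted p = 0.0102) and 0.65 higher than with siSfpq (SE 0.14, adjusted p = 0.0217).

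Pcdha8 is read on 2 probes, of which 1 is also listed for other alpha genes. Its samples read 9.04, 8.03 and 8.84 in control, 9.70, 8.32 and 9.52 in let-7a, 7.80, 7.39 and 7.69 in siSfpq, and 9.08, 7.57 and 8.82 with both. Replicate 3 was the lowest sample in every condition, and control and let-7a overlapped. Neither of its changes was called without a block (0.54 with let-7a, SE 0.43, adjusted p = 0.558, and -1.01 with siSfpq, SE 0.43, adjusted p = 0.137), and its 2 probes gave similar differences, -1.03 and -0.996 with siSfpq. Pcdha4 and Pcdha9 fell with siSfpq (log2 -1.06, SE 0.31, adjusted p = 0.0438, and -0.67, SE 0.16, adjusted p = 0.0248), and Pcdha9 was lower with both agents than with let-7a alone (log2 -0.74, SE 0.16, adjusted p = 0.0362). With normexp these Pcdha9 values were -0.40 and -0.49. Pcdha11 was not called with siSfpq (adjusted p = 0.0914), and its difference is not read, since 1 of 4 siSfpq arrays was well above background. Pcdha12 had -0.58 with siSfpq (SE 0.65, adjusted p = 0.601). With the replicate number as a block, which the resemblance of same-numbered samples allows, Pcdha8 (SE 0.18, adjusted p = 0.00464), Pcdha11 (adjusted p = 0.00854) and Pcdha12 (SE 0.12, adjusted p = 0.00769) were called lower with siSfpq, and Pcdha12 higher with let-7a (0.72, adjusted p = 0.00346). The call of Pcdha4 with siSfpq was lost with normexp (-0.58, adjusted p = 0.058), and that of Pcdha9 between both agents and let-7a with 75th percentile scaling (-0.76, adjusted p = 0.0872).

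The gamma cluster, which follows the beta genes on the same chromosome, had none of its 5 genes called in any comparison of this fit. The share of all genes called ran from 0% (interaction) to 13.6% (siSfpq against control), and none of 5 is near that share. The gamma median was 0.09 with let-7a, -0.43 with siSfpq and 0.09 with both against control. Pcdhga9, on probes in constant exons, read 10.47, 10.36 and 10.34 in control, 10.74, 10.42 and 10.69 in let-7a, 9.66, 10.34 and 9.64 in siSfpq, and 10.33, 10.09 and 10.33 with both. In siSfpq arrays 1 and 2 and replicate 4 lay below every control sample and replicate 3 did not, which left a difference of -0.51 (SE 0.18, adjusted p = 0.0762, or 0.0467 with the replicate block). Fitted singly, its brighter probe, at 38001378, gave -0.68 (adjusted p = 0.0521) and the other -0.34 (adjusted p = 0.306). Pcdhga1 read 5.54, 5.39 and 5.28 in control, 5.71, 5.62 and 5.61 in let-7a, 4.69, 5.09 and 3.97 in siSfpq, and 5.47, 5.01 and 7.11 with both, the last sample standing apart from the other two. The sign of the differences of Pcdhga5 and Pcdhgc5 in siSfpq, each -0.05, changed with the scaling of the arrays.

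The non-clustered genes as a group did not shift one way. With let-7a 5 of the 9 that passed were above 0 and 4 below (median 0.17), and with siSfpq 4 were above and 5 below (median -0.14). Under another processing of the arrays, the value table that the authors deposited, the median in siSfpq was 0.03. Of the 9 genes, 3 were above 0 with let-7a and also below 0 with siSfpq, against all 15 beta, all 6 alpha and 4 of 5 gamma genes. These counts include Pcdha11, Pcdhb2, Pcdhb10 and Pcdhb15, which passed the filter through the let-7a arrays alone. The share of all genes with both signs is not given. No test of this difference between clustered and non-clustered genes was made.

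None of the 5 non-clustered genes with the highest levels was called in this fit, although with the replicate number as a block Pcdh18 was called lower with siSfpq (-0.38, adjusted p = 0.0271), higher with both agents than in control (0.52, adjusted p = 0.0233) and higher with both than with siSfpq (0.91, adjusted p = 0.00139). Pcdh18 read 10.14, 10.69 and 9.996 in control, 10.30, 11.09 and 10.27 in let-7a, 9.56, 10.53 and 9.59 in siSfpq, and 10.63, 11.04 and 10.73 with both. Pcdh1 read 9.89, 10.55 and 10.18 in control, 9.76, 10.41 and 10.31 in let-7a, 10.12, 10.50 and 10.21 in siSfpq, and 9.93, 10.33 and 10.24 with both. In Pcdh18 and Pcdh1 replicate 3 was the highest sample of every condition. All conditions overlapped in Pcdh1, and in Pcdh18 all but siSfpq (at most 10.53) and both agents (at least 10.63). Pcdh19, a gene mutated in an inherited epilepsy, read 10.14, 9.83 and 10.23 in control, 9.62, 9.65 and 9.61 in let-7a, 9.80, 10.20 and 9.79 in siSfpq, and 10.03, 9.70 and 9.92 with both. Its let-7a samples lay below all control samples, with a difference of -0.44 (SE 0.15, adjusted p = 0.106). Pcdh8 was between 7.91 and 8.42 and Pcdh11x between 7.41 and 7.96 over all 12 samples, with differences of at most 0.19 in size in the 5 comparisons of conditions. The kept Pcdh11x probe is listed for no RefSeq gene, and those listed for Pcdh11x were well above background on 0 and 2 arrays.

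Pcdh17, which acts in the assembly of presynaptic terminals, was the one non-clustered gene called. It read 5.22, 4.16 and 5.08 in control, 7.09, 6.52 and 6.88 in let-7a, 4.59, 4.47 and 3.72 in siSfpq, and 6.09, 6.01 and 5.98 with both. The let-7a samples were the highest, those with both agents lay above all control samples, and the siSfpq samples overlapped the control range. Pcdh17 rose 4.02-fold with let-7a (log2 2.01, SE 0.31, adjusted p = 0.00322). With both agents it was 3.40-fold higher than with siSfpq alone (log2 1.77, SE 0.31, adjusted p = 0.00905). With normexp these log2 changes were 0.97 (adjusted p = 0.000466) and 0.65 (adjusted p = 0.00833), so their sizes depend on the background treatment. Against control the difference with both agents was 1.20 (SE 0.31, adjusted p = 0.0954), and that with siSfpq was -0.56 (SE 0.31, adjusted p = 0.247), with 3 of 4 control arrays and 2 of 4 siSfpq arrays well above background. The difference with both agents was called with the replicate block (adjusted p = 0.0233) and in the authors' values (0.74, adjusted p = 0.0277). Pcdh10 read 5.12, 4.997 and 5.07 in control and was above that range in every other condition, with 0.89 in let-7a (SE 0.25, adjusted p = 0.0526), 0.50 in siSfpq (SE 0.25, adjusted p = 0.191) and 0.94 with both (SE 0.25, adjusted p = 0.0997), all of which were called with the replicate block.

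Pcdh7 had 3 kept probes that disagreed. With both agents against control they gave 0.77, -0.75 and -0.39, and their mean, -0.12, stands for no single probe. The probe that was measured above background on most arrays gave 0.78 with let-7a and -0.33 with siSfpq. Of the 3 kept probes of Pcdh15, a gene of the inner ear's hair cells, 1 was well above background on all 16 arrays and gave -0.04 with let-7a and 0.31 with siSfpq.

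**Figure D3:**
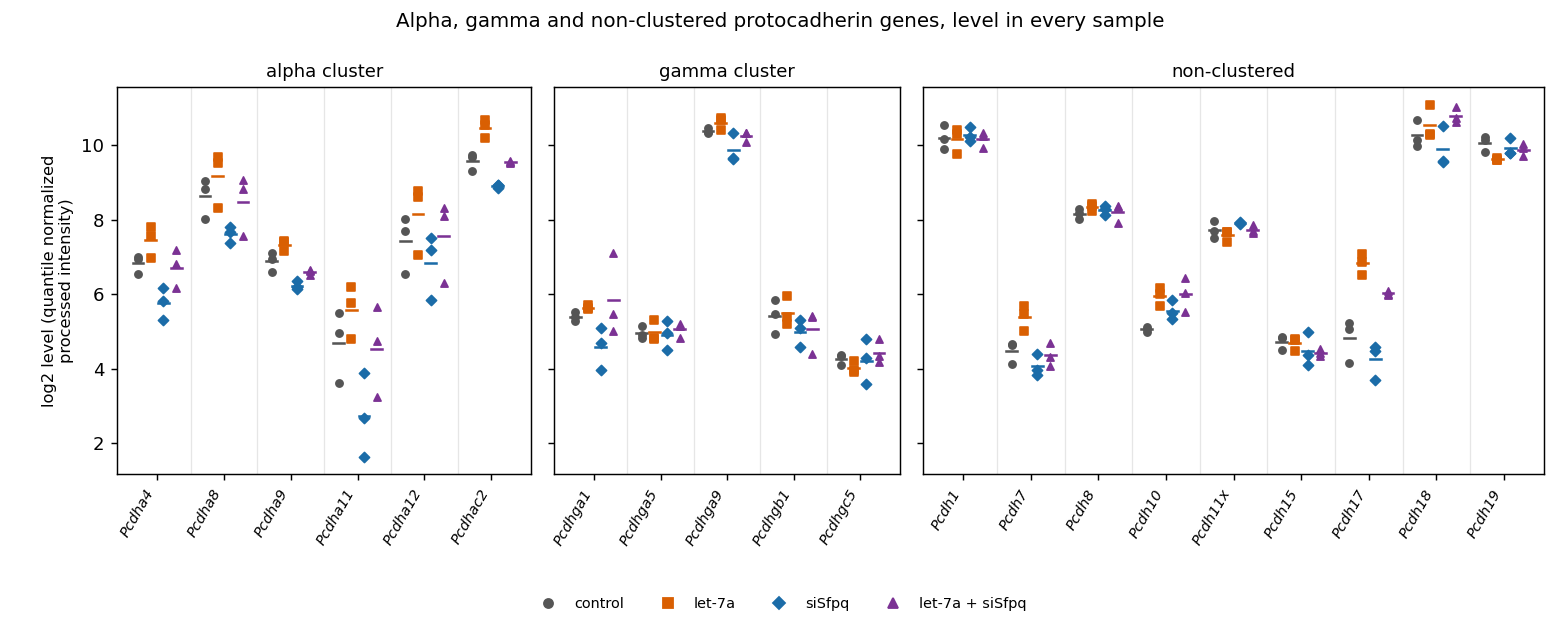
Log2 level (quantile-normalized processed intensity) of the 6 alpha, 5 gamma and 9 non-clustered genes that passed the filter, with a point for each of the 3 samples of a condition and a bar at their mean, drawn as for the beta genes. Pcdhac2 has its let-7a samples highest (10.21 to 10.67) and its siSfpq samples lowest (8.85 to 8.93), Pcdh17 has its let-7a samples highest (6.52 to 7.09), and Pcdh1 and Pcdh8 overlap in all conditions.

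Groups were also compared sample by sample. In let-7a and control 20 of the 35 members did not overlap, against 30.1% of all genes. In siSfpq and control 17 did not, against 29.5%. With both agents and control it was 6, against 20.2%, which is near the share of all genes. With 3 samples against 3 an exact permutation test of a single gene cannot go below p = 0.1, so none was used for calls.

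The interaction asked whether the effect of let-7a differed between cells with and without Sfpq knockdown. Mean Sfpq RNA was 11.40 with both agents and 10.88 with siSfpq alone, so an equal knockdown cannot be assumed. No member was called by limma, 0 of 35 had an unadjusted p under 0.05, and 0% of all genes passed, with 1163 of all genes at an unadjusted p under 0.05. The members' interaction terms ran from -0.63 to 1.03, and the lowest adjusted p was 0.818, for Pcdh19. The beta median was 0.07, with 12 genes above 0 and 3 below, but it was -0.16 with normexp background correction and -0.15 in the authors' value table, so the direction of the beta interaction is set by the processing. For Pcdhb21, for example, the fit gave an interaction of 0.07 with an SE of 0.41.

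The same-numbered samples of the 4 conditions resembled each other, and the fit was repeated with the replicate number as a block. No member lost its call, and the counts rose, as did those over all genes. With let-7a 15 members rose (3 alpha, 9 beta and 3 non-clustered) and none fell, beside 11.6% of all genes called higher. With siSfpq 20 fell (6 alpha, 12 beta, Pcdhga9 and Pcdh18) beside 19.3% of all genes called lower, and 1, Pcdh10, rose by 0.50 (adjusted p = 0.0322). With both agents against control 3 members were called, Pcdh10 (0.94, adjusted p = 0.00728), Pcdh17 (1.20, adjusted p = 0.0233) and Pcdh18 (0.52, adjusted p = 0.0233), all higher, beside 8.16% of all genes called. No clustered gene was among them. Against let-7a 18 were called lower (5 alpha, 12 beta and Pcdh7), beside 7.18%. The Pcdh7 call is not read as a fall of the gene, since the probe that was above background on 15 arrays gave -0.01 there and the other 2 passed through the let-7a arrays alone. Against siSfpq 19 rose (6 alpha, 11 beta, Pcdh17 and Pcdh18), beside 17.6%. No member's interaction was called, beside 0.0218% of all genes. Pcdhb12 and Pcdhb14 were not called in any comparison with the block either.

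Replicate 3 differed from the others in the size of the siSfpq effect. The beta median in siSfpq against control was -1.84 in arrays 1 and 2, -0.68 in replicate 3 and -2.08 in replicate 4. With let-7a against control it was 1.26, 1.005 and 1.19. With both agents against siSfpq it was 1.57, 0.68 and 1.57, and with both against let-7a -1.79, -1.20 and -1.73. All of these kept their sign, while that of both agents against control was -0.55, 0.08 and -0.49 and that of the interaction 0.23, -0.30 and 0.30. The gamma median in siSfpq was -0.76, -0.02 and -0.40. Replicate 3 is also the sample with the weakest fall of Sfpq, and its part in these differences was not tested.

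**Figure D4:**
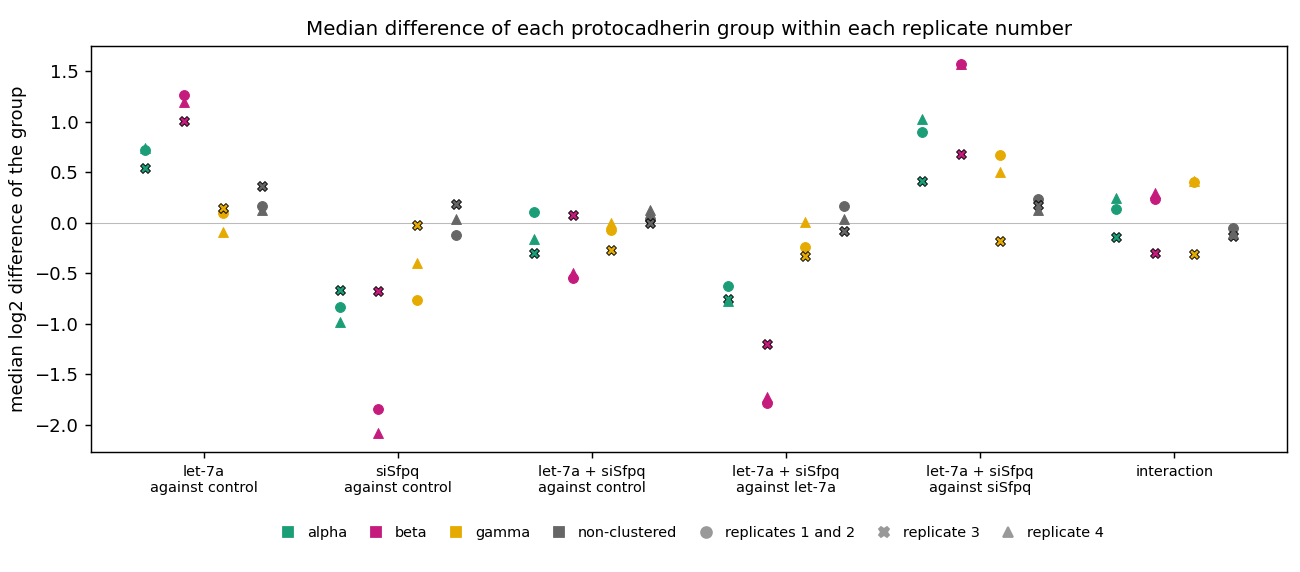
Median log2 difference of the alpha, beta, gamma and non-clustered genes within each replicate number (circle, arrays 1 and 2 averaged; cross, replicate 3; triangle, replicate 4), for the 6 comparisons. The beta medians in siSfpq against control are -1.84, -0.68 and -2.08, those in let-7a against control 1.26, 1.005 and 1.19, and those of the interaction lie on both sides of 0.

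Without replicate 3, which leaves 2 samples per condition, more of the family and more of all genes were called. With let-7a 18 members rose and 1, Pcdh19, fell by 0.57 (adjusted p = 0.000788), beside 15.6% of all genes called higher. With siSfpq 23 fell and 1 rose, beside 25.3% called lower. With both agents against control Pcdhb22, Pcdhb21, Pcdhb18 and Pcdhb10 were lower, by log2 differences from -1.05 to -0.67, and Pcdh18 and Pcdh10 were higher, which at 6 of 35 lies close to the 18.3% of all genes called. Against let-7a 19 fell and 2 rose, beside 13.2%, and against siSfpq 24 rose, beside 24.8%. The interaction was called for Pcdh18 (0.88, adjusted p = 0.00147), Pcdh19 (0.75, adjusted p = 0.00194), Pcdhga9 (0.37, adjusted p = 0.0255) and Pcdhb3 (adjusted p = 0.0122), all above 0, beside 22.5% of all genes called. The 4 of 35 members is below that share, and the size of the Pcdhb3 term is not read, because replicate 3 held its one siSfpq array well above background.

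Single libraries decided several counts, over the family and over all genes, whose called share in either direction is given in brackets. The 8 members that rose with let-7a (6.9%) became 3 without control replicate 3 (3.76%), 4 without control replicate 4 (3.32%), and 2 without the let-7a sample of arrays 1 and 2 (2.23%) or without let-7a replicate 4 (2.29%). They became 15 without siSfpq replicate 3 (13%). The 14 that fell with siSfpq (13.6%) became 7 without the control sample of arrays 1 and 2 (2.2%), control replicate 4 (2.36%) or siSfpq replicate 4 (1.92%), and 6 without the siSfpq sample of arrays 1 and 2 (1.65%). The 9 that were lower with both agents than with let-7a (3.11%) became 0 without any one of the arrays 1 and 2 or replicate 4 samples of those conditions (0.186% to 0.311%), where 15 to 17 still had an unadjusted p under 0.05, as did 1909 to 2388 of all genes. They became 16 without siSfpq replicate 3 (8.57%). The 9 that were higher than in siSfpq (10.3%) became 3 without any one of the matching samples of those conditions (1.64% to 2.16%) and 16 without siSfpq replicate 3 (31%). With both agents against control 1 member was called without let-7a + siSfpq replicate 3 (1.77%), Pcdh10 (1.17, adjusted p = 0.0346), and 1 interaction without siSfpq replicate 3 (7.58%), Pcdhb3 (adjusted p = 0.0316), then with no siSfpq array well above background. With arrays 1 and 2, or replicate 4, left out of every condition, limma called no member in any comparison, and replicate 3 was then 1 of the 2 samples of each condition. Of all genes those fits called 3 and 2 with let-7a, and 1 and 0 with both agents against siSfpq, and none in the other comparisons. In those fits 12 and 10 members had an unadjusted p under 0.05 with let-7a, beside 1576 and 1532 of all genes, and 15 and 14 with siSfpq, beside 1861 and 1718. There were 14 and 14 with both agents against let-7a, beside 1074 and 948, and 11 and 11 against siSfpq, beside 1673 and 1440.

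The size of the changes depended on how background was treated. With normexp, applied to the mean spot signals, the beta medians were nearer 0, as given for the cluster, and they were 0.96 with let-7a and -0.98 with siSfpq in the values of the authors' table. All 15 beta and all 6 alpha genes kept their side of 0 in both comparisons under these scalings and under scaling by the 75th percentile. The median of all genes moved by less than 0.1 under each. Of the 40 called values of single members, 23 were smaller by over 1.5 times on the log2 scale with normexp, 14 in the authors' values and 0 with the 75th percentile, and 3 were no longer called under each. The bright Pcdhac2 and Pcdhb21 were not among the 23 in any comparison.

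Of the 12 genes that did not pass the filter, 7 were beta genes (Pcdhb1, Pcdhb5, Pcdhb8, Pcdhb9, Pcdhb11, Pcdhb13 and Pcdhb19), and the others were Pcdhac1, Pcdhga10, Pcdh9, Pcdh12 and Pcdh20. Their probes were well above background on 0 (Pcdhb5 and Pcdhb13) to 10 (Pcdh9) of the 16 arrays. They were tested only in the fit without a filter, and a gene below background is not shown to be silent.

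Regulators of the clustered promoters were examined next. For this and the lists that follow, the share of all genes called in either direction was 6.9% with let-7a, 13.6% with siSfpq, 1.54% with both agents against control, 3.11% against let-7a and 10.3% against siSfpq. Of the 22 names listed, 21 passed the filter, and the remaining name, Wapal, is an older one of Wapl. None was called with let-7a by limma. With siSfpq Wapl and Pds5a, which release cohesin from chromatin, rose (log2 1.06, adjusted p = 0.011, and 0.52, adjusted p = 0.0398). Wiz, which is found at cohesin and Ctcf sites, fell (log2 -0.33, adjusted p = 0.0427). Ctcf had a difference of -0.15 with let-7a (adjusted p = 0.56) and 0.10 with siSfpq (adjusted p = 0.616). Smchd1, a repressor known to act on the clustered genes, was higher with both agents than in control (log2 0.83, adjusted p = 0.0246), and none of the list was lower there. With both agents against siSfpq Wapl, Pds5a and Dnmt3b were lower (-0.88, -0.57 and -0.30) and none higher. None of the list was called between both agents and let-7a or in the interaction, and its medians were between -0.16 and 0.10.

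Among 16 partners of protocadherin signalling, all of which passed, Cyfip2, a subunit of the actin-regulating WAVE complex, and the kinase Fyn rose with let-7a (log2 0.94, adjusted p = 0.000365, and 0.60, adjusted p = 0.0154), and Wasf1 fell (log2 -0.36, adjusted p = 0.0376). With siSfpq the receptor kinase Ret, N-cadherin (Cdh2) and Fyn fell (log2 -1.47, -0.76 and -0.44), and Abi2 rose (0.34). With both agents Cyfip2 was above control (log2 0.72, adjusted p = 0.00355), and Ret, Cyfip2, Cdh2 and Fyn were above siSfpq (2.02, 0.90, 0.64 and 0.53). No other partner was called in these comparisons, and none against let-7a or in the interaction.

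Other cadherins gave a background for the family. Of 35 names listed, 32 were on the array and 24 passed. With let-7a 1 rose, Cdh22 (log2 1.05, adjusted p = 0.0137), and none fell, and the median was 0.17, against 1.25 for the beta protocadherins. With siSfpq 7 of the 24 fell, beside 7.33% of all genes called lower, among them Cdh13 (-1.93, adjusted p = 0.00746), Cdh4 (-1.16, adjusted p = 0.0494), Cdh22 (-1.14, adjusted p = 0.0103) and the large cadherins Dchs1 and Fat4 (-0.98 and -0.95), and Cdh1, the epithelial E-cadherin, rose (1.11, adjusted p = 0.00545). The median of the list was -0.32. With both agents 1 was above control (Cdh18, 0.95) and none below, 2 were above let-7a and 1 below, and 7 were above siSfpq, beside 6.18% of all genes called higher, and none below. No interaction was called.

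Markers of other cell types moved with the conditions. Of 10 neuronal markers, all of which passed the filter, 8 rose with let-7a (beside 4.88% of all genes called higher), 6 fell with siSfpq (7.33% lower), none was called with both agents against control (1.54%), 7 fell with both against let-7a (2.16% lower), and 5 rose with both against siSfpq (6.18% higher). The log2 of their summed level was 15.39 to 15.59 in control, 15.77 to 16.18 in let-7a, 14.56 to 15.03 in siSfpq and 15.16 to 15.28 with both. These ranges followed the same order as Pcdhb21. Of the pluripotent markers, Lin28a, Nanog and Utf1 fell with let-7a, and Utf1 rose and Sox2 fell with siSfpq. With both agents 1 was lower than in control, 1 higher than with let-7a and 2 lower than with siSfpq. The log2 of the summed level of the 7 was 15.92 to 16.13 in control, 15.32 to 15.78 in let-7a, 16.14 to 16.33 in siSfpq and 15.77 to 15.91 with both. Of 6 mesendoderm markers 4 passed, T and Gsc fell with let-7a, and T rose with siSfpq. With both agents none was called against control, 3 were higher than with let-7a and 2 lower than with siSfpq. Their log2 summed level was 10.55 to 10.98 in control, 9.11 to 9.15 in let-7a, 11.79 to 12.76 in siSfpq and 9.80 to 10.90 with both. Of 4 glial markers Mbp fell with siSfpq and Olig2 was lower with both agents than with let-7a, and the log2 summed level was 8.80 to 9.18 in control, 9.004 to 9.28 in let-7a, 8.39 to 8.53 in siSfpq and 8.59 to 8.83 with both. The part of these changes in the protocadherin results was not tested.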

How the data were processed

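RNA of P19 cells in 4 conditions was labelled with Cy3 and hybridised to Agilent mouse arrays, 16 in all. The methods describe 3 replicates and the labels 4 arrays per condition. The authors deposited scanner files, whose processed intensity per spot is background-subtracted by the scanner software, and a value table on the log2 scale. In that table each array's values follow the order of the median spot intensity (Spearman correlation 1 on every array), and the authors' methods name quantile normalization with limma. Its centring and background step are not given in the sources used here.

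Processed intensities were taken as log2 and quantile normalized over 16 arrays with limma 3.58.1 in R 4.3.3. Control spots and outlier spots were left out, spots of a probe and probes of a gene were averaged, and arrays 1 and 2 were averaged. Gene names came from the RefSeq accession of a probe where it matched (62 of the 64 protocadherin probes), otherwise from the scanner files, and coordinates are those of the files, in mm9. A limma fit of 4 condition means (lmFit, eBayes with intensity trend) gave 6 comparisons, adjusted by the Benjamini-Hochberg method over 18323 genes, with calls at 0.05. The steps were tested on simulated data with independent samples, which lack the resemblance of same-numbered samples seen here. Of 200 genes changed by 1 on the log2 scale in let-7a, 109 were called, and 185 of 200 changed by 2. The interaction was called for 59 and 162 of them. Array number limits the precision.

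The members, lists and tests were chosen with earlier results of these data known. The text names the 4 beta, 2 alpha, 2 gamma and 5 non-clustered genes of highest mean level, and up to 3 genes with the largest rise and fall in each comparison. Other members are named to account for called or untested genes, and Pcdhb12, Pcdhb14, Pcdh7, Pcdh10 and Pcdh15 were singled out after their values were seen. One gene of the list of promoter regulators is not reported here.

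Replicate numbers come from the labels. Deviations from the condition means correlated between same-numbered samples, at 0.52 to 0.70 for arrays 1 and 2, 0.45 to 0.71 for replicate 3 and 0.28 to 0.46 for replicate 4, and 12 of 12 samples correlated best with their own number, so the numbers were taken to pair the samples. Alternatives were 16 separate arrays, 75th percentile scaling, normexp with an offset of 50, the authors' value table, no filter and a stricter one, slide and replicate blocks, only the conditions compared, no trend, 1 value per probe, and leaving out samples.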

Additional observations from a re-analysis of the deposited data

Results flagged for a closer look

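Signal above background appeared in protocadherin probes that the filtered comparisons did not use. The Pcdhb11 probe (mm9 chromosome 18, 37583696 to 37583755) was well above background on 3 of 4 let-7a arrays and on 0 of 4 arrays of each other condition, control included, with a mean log2 level of 4.14 in let-7a. Its means were 2.66 in control, 2.94 with siSfpq alone and 2.16 with both agents. The Pcdh20 probe (mm9 chromosome 14, 88865889 to 88865948) was likewise above background on 3 of 4 let-7a arrays and on 0 of 4 elsewhere, with a mean of 4.27 in let-7a, against 1.98 in control, 2.06 with siSfpq alone and 2.79 with both. Both were left out by the filter, which asks for all 4 arrays of a condition, so neither difference was tested in the filtered fit. The fit without a filter held both genes, and its values for them are not given here.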

How the results depend on the processing

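Counts of protocadherin genes called by limma were compared across settings. Those that moved by over 1.5 times are given here, from 8 (let-7a against control), 14 (siSfpq against control), 0 (let-7a + siSfpq against control), 9 (against let-7a), 9 (against siSfpq) and 0 (interaction). Shares in brackets are those of all genes called. With 16 separate arrays they were 17 for let-7a (19.8%), 2 for both agents against control (7.91%), 16 against let-7a (14.2%) and 21 against siSfpq (32.4%). With the replicate block they were 15 (21.7%), 3 (8.16%), 18 (13.1%) and 19 (33.3%), with siSfpq at 21 (37.7%). With normexp let-7a gave 13 (7.64%) and both against let-7a 14 (4.26%). Both agents against control gave 1 in the authors' value table (Pcdh17; 1.3%) and 1 with the slide block (Pcdh10; 1.6%). Without a filter, over 47 genes, the interaction gave 2 (0.0183%), Pcdhb13 and Pcdhb9, whose probes were above background on 0 and 1 of 16 arrays. With the stricter filter, over 22 genes, let-7a gave 5 (6.14%), siSfpq 9 (12.9%) and both against siSfpq 5 (9.65%), fewer genes being tested. With only the compared conditions in the fit, siSfpq gave 0 (0%), with 18 members and 4722 of all genes at an unadjusted p under 0.05, and both against siSfpq 2 (1.2%). That fit uses fewer samples and gives no interaction. Leaving out samples, from 1 sample up to a replicate number in every condition, gave 0 to 19 for let-7a, 0 to 24 for siSfpq, 0 to 6 for both against control, 0 to 21 against let-7a, 0 to 24 against siSfpq and 0 to 4 for the interaction. Single called genes kept their direction under every alternative. With the samples kept, 377 of their values stayed past the threshold and 48 did not, and with samples left out 392 did and 208 did not. Every call was lost without arrays 1 and 2 or without replicate 4 in all conditions, and none without replicate 3. The causes were not tested, beyond the fewer genes or samples named. Signal over background limits Pcdhb2, Pcdhb10 and Pcdhb15 to a bound or to no fold in siSfpq.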
